A study of Mus musculus with 6 samples.

Results

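The strands of the hairpins miR-28a, miR-151 and miR-708 were followed in small RNA libraries of 3 mouse tumors and 3 mouse oviducts. The members were chosen by name, as the rows mmu-miR-28a-5p, mmu-miR-28a-3p, mmu-miR-151-5p, mmu-miR-151-3p and mmu-miR-708-5p, which are 5 of 1915 mouse microRNA names in the count table. The mouse prefix is left off from here on. The tumors, called ADT primary tumors by the submitters, had the genotype Dicer1ko/D1693N, and the oviducts were Dicer1+/D1693N. All 6 samples thus carried the D1693N allele, and the groups differed in the other Dicer1 allele and in tissue state at once. Both groups are labelled as oviduct tissue from untreated mice. Age, strain and the way the knocked-out allele was made are not stated in these sources. The series text speaks of 4 tumors and 5 oviducts, and samples beyond these 6 were not analysed here. One tag in the deposited column names was the same in all tumors and another in all oviducts, so that tag, tissue state and genotype cannot be told apart.

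A microRNA gene gives an RNA hairpin that Dicer cuts into a 5p and a 3p strand, either of which can be loaded into an Argonaute protein. A loaded strand finds messenger RNAs mainly through its seed, bases 2 to 8, and lowers their translation or stability. The D1693N change lies in the RNase IIIb domain of Dicer, which makes the cut that frees the 5p strand from the hairpin, while the RNase IIIa domain makes the cut on the 3p side. The hairpins studied here all sit in introns of genes for proteins of cell adhesion or the cell surface. Human miR-151-5p is known for promoting migration of liver cancer cells, miR-708-5p for restraining metastasis of breast cancer cells, and mouse and human miR-28-5p for restraining growth of B-cell lymphoma. These are background facts from other tissues.

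In the GENCODE M21 annotation of GRCm38, Mir28a lies on chromosome 16 from 24827855 to 24827940 on the plus strand, in an intron of Lpp, which encodes a protein of focal adhesions. Mir151 lies on chromosome 15 from 73254815 to 73254882 on the minus strand, in an intron of Ptk2, the gene for focal adhesion kinase, and also in an intron of the antisense gene 1700085D07Rik on the other strand. Mir708 lies on chromosome 7 from 96249424 to 96249532 on the plus strand, in an intron of Tenm4, which encodes a transmembrane teneurin. Each hairpin lies on the same strand as its protein-coding host gene. The authors' own build is not stated in these sources, so these positions come from the annotation alone.

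The mature sequences below, from the RefSeq table for GRCm38.p6, are shown because the 5p strands of miR-28a and miR-708 share a seed while their 3p partners do not. Capitals mark the seed, and 3 of the 5 members had an entry, beside the 3p partner of miR-708. Both strands of miR-151 lacked an entry, so their seeds were not compared.
miR-28a-5p: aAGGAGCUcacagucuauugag
miR-708-5p: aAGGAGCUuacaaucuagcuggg
miR-28a-3p: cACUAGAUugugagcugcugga
miR-708-3p: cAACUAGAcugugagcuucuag
The first 8 bases of miR-28a-5p and miR-708-5p were identical. Over the 22 positions of miR-28a-5p, counted from 1 at the 5′ end, 16 were the same in miR-708-5p and 6 differed, as C9U, G13A, U18G, U19C, G20U and A21G, with the miR-28a base given first. Among the 1738 mature entries of that table, no other name had the seed AGGAGCU at bases 2 to 8. The 3p strands matched at 17 positions when shifted by 1 base, and that shift gives them different seeds. The table's miR-28b begins directly with the letters of that seed, so that its own seed is GGAGCUC, and it had 0 counts in all 6 libraries.
miR-28b: aGGAGCUCacaaucuauuuag
One further row, miR-28c, had no RefSeq entry, so its seed was not compared. That row held exactly the counts of miR-28a-5p in every library. It is not a separate result, and reads of miR-28a-5p and miR-28c cannot be told apart in this table. Mir28c lies on chromosome 15 from 53614205 to 53614279 on the minus strand, in an intron of Samd12. The 5p level, 5p share and total given for miR-28a below may therefore hold reads from that locus, whose part was not tested.

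Mouse microRNA counts summed to 154002 at the least and 272167 at the most in a tumor library, and to 297039 and 580390 in an oviduct library. Levels are given as CPM, the count scaled by library size with trimmed-mean (TMM) factors, under which 3 counts correspond to 12.8 to 15.04 CPM in the tumors and to 5.45 to 11.8 CPM in the oviducts. Whole-tissue RNA was counted, so fewer cells with a microRNA and less of it per cell cannot be told apart. Of the cell type lists, the multiciliated miR-34 and miR-449 strands summed to between 420 and 1204 CPM in the tumors and to between 14806 and 21529 CPM in the oviducts, with 3 of 5 tested strands lower. The epithelial miR-200 and miR-141 strands summed to 3841 to 6986 CPM in the tumors and to 6913 to 11920 CPM in the oviducts, with 1 of 5 lower. Strands of miR-143 and miR-145a, of smooth muscle and fibroblasts, summed to 94231 to 831959 CPM in the tumors and to 487607 to 555481 CPM in the oviducts, with 2 of 3 lower, and the endothelial miR-126a strands to 15136 to 20113 CPM and to 7117 to 9508 CPM in the same order, with both strands higher. Leukocyte strands summed to 687 to 4780 CPM in the tumors and to 1051 to 1714 CPM in the oviducts, with 0 of 4 called, and red cell strands to 154 to 1108 CPM and to 140.0 to 183 CPM, with the 1 tested strand higher. Neuronal strands were at most 10.03 CPM in any library. The part of these cell types in the results below was not tested.

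The 5p strands of all 3 hairpins were lower in the tumors, by 2.28-fold to 3.81-fold, and neither 3p member was called. Of the 5 members, 3 fell, 0 rose and 2 did not pass the edgeR quasi-likelihood test, whose calls are at an adjusted p under 0.05. Of all 227 tested microRNAs 25.6% fell and 26.9% rose, and of the 95 tested 5p names 48.4% fell. Falls were thus common among 5p names, and no test run here sets the 3 members apart from the other 5p names. All 5 members passed the filter on low counts, but miR-708-5p reached its count level in only 1 of the 3 tumors and miR-28a-5p in 2 of them, while all 3 oviducts reached it for each. The values of 2 members, miR-28a-5p and miR-708-5p, did not overlap between the groups, both with the tumors lower, as for 30.4% of the 227 names. Log2 fold changes are tumor over oviduct, and their median was -1.93 over the 3 5p members and 0.08 over the 2 members on the 3p side. Over all tested names the median was -1.04 for 5p and 0.89 for 3p, and 0.20 for all 227.

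**Figure D1:**
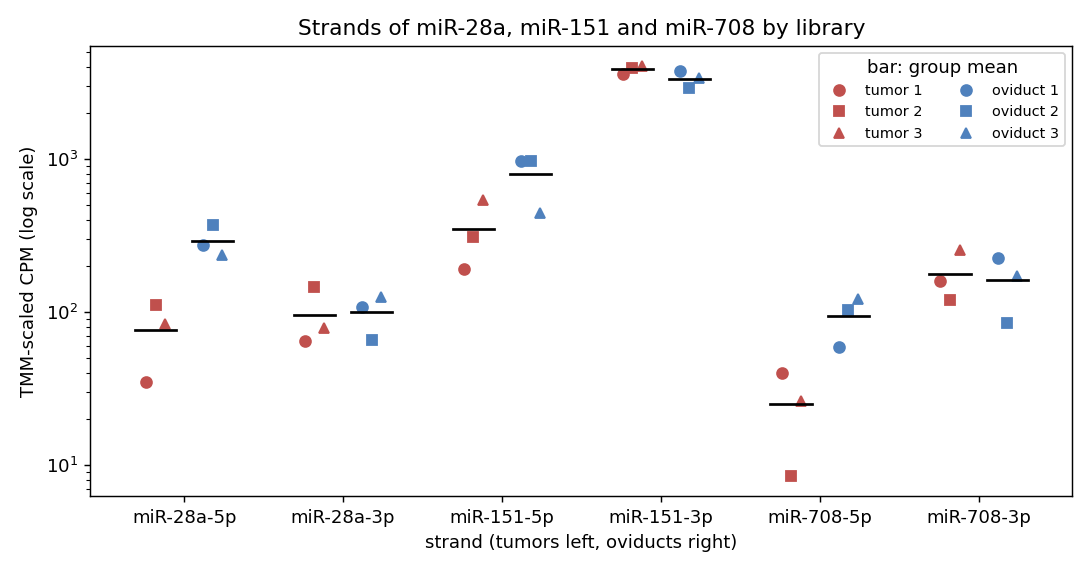
Level of each strand in each library, in TMM-scaled CPM on a log axis, with tumors in red on the left and oviducts in blue on the right of each pair, and bars at the group means. The tumors lie below the oviducts without overlap for miR-28a-5p and miR-708-5p, and overlap with them for the other strands, among them miR-151-5p.

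The miR-28a-5p strand, which carries the seed AGGAGCU, had 35.1, 111 and 83.2 CPM in tumors 1, 2 and 3, against 273, 371 and 236 CPM in oviducts 1, 2 and 3. Every tumor lay below every oviduct, and tumor 1 was the lowest. The groups averaged 76.5 ± 38.5 CPM in the tumors and 293 ± 69.6 CPM in the oviducts (SD, n = 3 each). The strand fell 3.81-fold (log2 -1.93, SE 0.52, edgeR adjusted p = 0.0106). They rest on 7, 26 and 19 counts in the tumors, against 88, 204 and 60 in the oviducts. The call was lost with library totals as the only scaling (log2 -1.43, edgeR adjusted p = 0.0908) and without oviduct 2 (log2 -1.82, edgeR adjusted p = 0.0573).

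The other strand with this seed, miR-708-5p, was the scarcest member in the tumors, with 40.1, 8.55 and 26.3 CPM in tumors 1, 2 and 3, against 59.0, 104 and 122 CPM in oviducts 1, 2 and 3. The groups did not overlap, and tumor 1 and oviduct 1 came nearest to each other. It averaged 24.98 ± 15.8 CPM in the tumors and 94.9 ± 32.4 CPM in the oviducts (SD, n = 3 each). The strand thus fell 3.80-fold (log2 -1.93 with an SE of 0.60, edgeR adjusted p = 0.0214). The tumor values come from 8, 2 and 6 counts, whose exact Poisson 95% intervals of 3.45 to 15.8, 0.242 to 7.22 and 2.20 to 13.1 counts overlap one another. The oviduct values come from 19, 57 and 31 counts, with an interval of 11.4 to 29.7 counts in oviduct 1. Scaled to CPM, the intervals of tumor 1 and oviduct 1 overlap, so the gap between them lies within counting error. Without tumor 2 the log2 fold change was -1.47 and was not called (edgeR adjusted p = 0.0673), and without oviduct 2 the call was lost at the same size (log2 -1.93, edgeR adjusted p = 0.0693). Without tumor 1 it was -2.66, which is over 1.5 times as large on the fold scale.

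The strand miR-151-5p was the most abundant of the 5p members, at 191, 308 and 543 CPM in tumors 1, 2 and 3, against 963, 971 and 445 CPM in oviducts 1, 2 and 3. Tumor 3 lay above oviduct 3, so the groups overlapped. Averages were 347 ± 179 CPM in the tumors and 793 ± 301 CPM in the oviducts (SD, n = 3 each), which is 2.28-fold lower and close to the threshold (log2 -1.19 with an SE of 0.45, edgeR adjusted p = 0.0480). The fold change was negative under all 16 alternative settings, between -2.17 and -0.66 on the log2 scale, but the call held in 7 of them, and the edgeR adjusted p ranged from 0.00382 to 0.344. It was lost without tumor 1, tumor 2, oviduct 1 or oviduct 2, at log2 values of -1.14, -1.04, -1.29 and -1.12. Without tumor 3 the log2 value was -1.80 and without oviduct 3 it was -1.75, larger falls than with all libraries.

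Of the 110 tested 3p names 41.8% rose, and neither 3p member was among them. The dominant product of the whole set, miR-151-3p, had 3601, 3904 and 4019 CPM in tumors 1, 2 and 3, against 3751, 2903 and 3358 CPM in oviducts 1, 2 and 3. Its group means of 3841 ± 216 CPM in the tumors and 3337 ± 424 CPM in the oviducts (SD, n = 3 each) differed by a log2 fold change of 0.20 (SE 0.29, edgeR adjusted p = 0.572). Tumor 1 lay inside the range of the oviducts. The change was not called under any of 16 alternative settings, which gave log2 values between -0.68 and 0.64.

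The scarcer miR-28a-3p had 65.2, 145 and 78.8 CPM in tumors 1, 2 and 3, against 109, 65.4 and 126 CPM in oviducts 1, 2 and 3. High and low values occurred in each group. Its log2 fold change was -0.04 (SE 0.54, edgeR adjusted p = 0.975), between -0.88 and 0.43 under 16 alternative settings, none of which called it. The partner miR-708-3p, which is no member but is needed to judge its hairpin, had 160.5, 119.7 and 254 CPM in tumors 1, 2 and 3, against 227, 85.4 and 173 CPM in oviducts 1, 2 and 3. Its groups overlapped as well (log2 fold change 0.15, SE 0.53, edgeR adjusted p = 0.832). A p above the threshold does not show that these strands were equal in the groups.

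**Figure D2:**
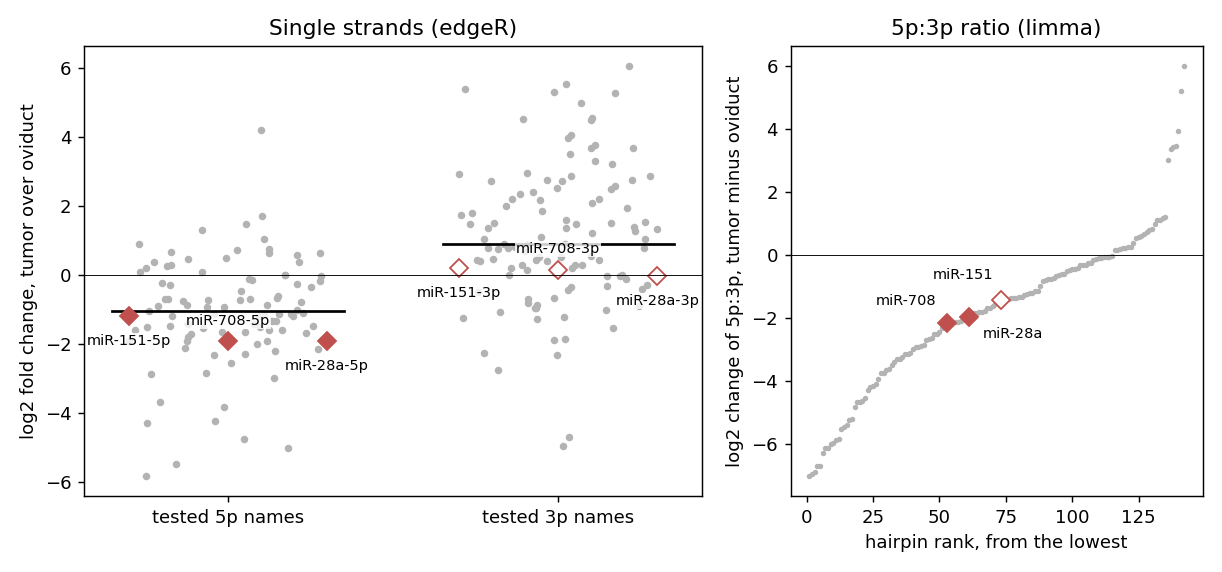
Left, log2 fold change (tumor over oviduct, edgeR) of all 95 tested 5p and 110 tested 3p names in grey, with bars at the medians of -1.04 and 0.89, and the strands of the 3 hairpins as diamonds, filled where the adjusted p was under 0.05. Right, log2 change of the 5p:3p ratio (limma) for 142 hairpins ranked from the lowest, in which miR-708, miR-28a and miR-151 hold ranks 53, 61 and 73.

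The order of the strands by level was compared within each group, as counts per strand not divided by length. In the tumors miR-151-3p stood first and clear of the rest, followed by miR-151-5p, miR-708-3p, miR-28a-3p, miR-28a-5p and miR-708-5p. From miR-151-5p downward, each strand's range in the tumors overlapped that of its neighbour. In the oviducts the order was miR-151-3p, miR-151-5p, miR-28a-5p, miR-708-3p, miR-28a-3p and miR-708-5p, and the first 4 were separated without overlap. The gap between miR-28a-5p (236 CPM in oviduct 3, 60 counts) and miR-708-3p (227 CPM in oviduct 1, 73 counts) lies within counting error. Among the 227 tested microRNAs, miR-151-3p ranked 26 by mean CPM in the tumors and 32 in the oviducts, whereas miR-28a-5p ranked 175 in the tumors and 100 in the oviducts.

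Because both strands of a hairpin come from one library, their ratio needs no scaling between libraries. The 5p share of the miR-28a counts was 35% (exact Clopper-Pearson 95% interval 15.4 to 59.2), 43.3% (30.6 to 56.8) and 51.4% (34.4 to 68.1) in tumors 1, 2 and 3. It was 71.5% (62.7 to 79.3), 85.0% (79.8 to 89.3) and 65.2% (54.6 to 74.9) in oviducts 1, 2 and 3. The 5p strand was thus the main product in every oviduct, while the tumors lay on either side of an equal split. The log2 5p:3p ratio fell by 1.95, with an SE of 0.64 (limma adjusted p = 0.0266), or 3.87-fold. The call was lost without tumor 1, tumor 2, oviduct 1 or oviduct 2 (limma adjusted p = 0.0569, 0.0504, 0.0552 and 0.128) and with a pseudocount of 0.1 (limma adjusted p = 0.0541), and the ratio without oviduct 2 changed by -1.49.

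In miR-708 the 5p share was 20% (9.05 to 35.6), 6.67% (0.818 to 22.1) and 9.38% (3.52 to 19.3) in tumors 1, 2 and 3, against 20.7% (12.9 to 30.4), 54.8% (44.7 to 64.6) and 41.3% (30.1 to 53.3) in oviducts 1, 2 and 3. Tumor 1 and oviduct 1 were nearly the same, and the remaining libraries were well apart. The log2 ratio fell by 2.16, with an SE of 0.73 (limma adjusted p = 0.0314), or 4.47-fold. It was lost without tumor 2, tumor 3, oviduct 2 or oviduct 3 (limma adjusted p = 0.0902, 0.0806, 0.141 and 0.0746) and with a pseudocount of 0.1 (limma adjusted p = 0.0655). Without oviduct 1 the change was -2.76 and without tumor 1 it was -2.63. A pseudocount of 5, which is close to the tumor counts themselves, gave -1.46 with the call kept (limma adjusted p = 0.0236).

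The miR-151 hairpin favoured its 3p strand in every library. Its 5p share was 5.03% (3.58 to 6.83), 7.31% (5.76 to 9.12) and 11.9% (9.996 to 14.0) in tumors 1, 2 and 3, against 20.4% (18.4 to 22.5), 25.1% (23.2 to 27.0) and 11.7% (9.74 to 13.9) in oviducts 1, 2 and 3. Oviduct 3 and tumor 3 had nearly the same share, and counting error is small here, with at least 756 counts behind each share. The change in log2 ratio was -1.44, with an SE of 0.64, and was not called (limma adjusted p = 0.0866). An edgeR test of the interaction of arm and group did call it at the same size (log2 -1.44, SE 0.47, edgeR adjusted p = 0.00759), as did a pseudocount of 5 (log2 -1.37, limma adjusted p = 0.0266). The other 11 of 13 alternatives did not call it, with a limma adjusted p of up to 0.268 (without oviduct 2).

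**Figure D3:**
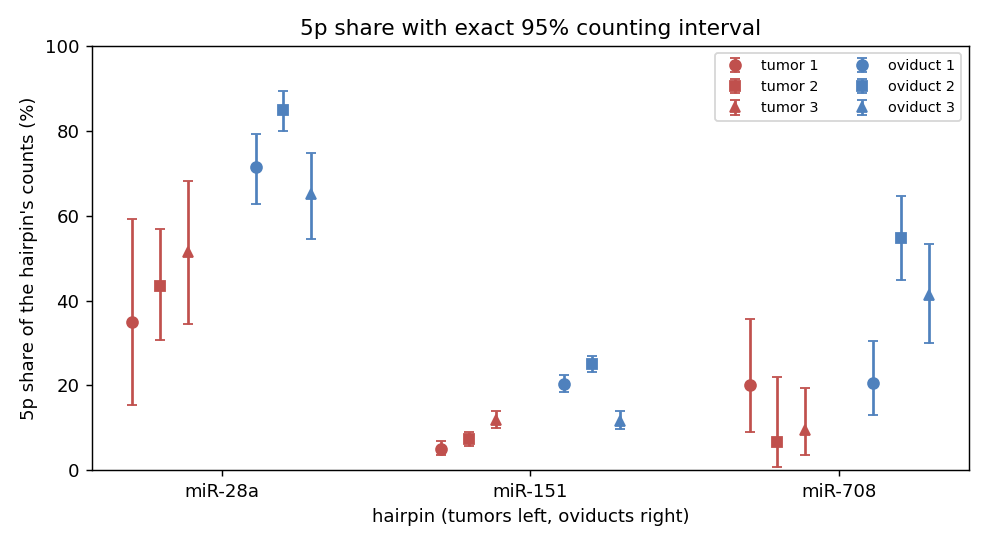
Share of the 5p strand in the counts of each hairpin, in percent, for each library, with exact 95% intervals that cover counting error only (tumors in red on the left, oviducts in blue on the right). In miR-28a all tumors lie below all oviducts, in miR-151 tumor 3 and oviduct 3 coincide at 11.9% and 11.7%, and in miR-708 tumor 1 and oviduct 1 coincide at 20% and 20.7%.

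The 5p:3p ratio fell in 2 of the 3 hairpins, beside 47.2% of the 142 hairpins tested. The tumors lay below all oviducts in the ratio of miR-28a and miR-708, as in 51.4% of the 142 hairpins. For miR-708 this rests on log2 ratios of -1.93 in tumor 1 and -1.91 in oviduct 1, a gap within counting error. The median change over those 142 was -1.53 on the log2 scale. Some of the 142 had no count of their 5p or their 3p strand in any library. Their values rest on the other strand's counts and on the 0.5 added to each count. With ranks of 53, 61 and 73 from the lowest, the 3 hairpins lay in the middle of that list. The hairpins next to miR-28a in it were miR-486a (log2 -1.97, limma adjusted p = 0.0149) and miR-191 (log2 -1.85, limma adjusted p = 0.0425). Next to miR-151 stood miR-300 (log2 -1.52, limma adjusted p = 0.276) and miR-21a (log2 -1.43, limma adjusted p = 0.0917). The 5p side of miR-300 had 0 counts in every library, with 127 3p counts in the tumors and 28 in the oviducts. Its value is thus no measured shift between strands. The 3p side of miR-486a had only 10 counts in the tumors and 4 in the oviducts, and that of miR-191 had 7 in each group. The changes of the 3 hairpins were then set against each other. The change in miR-151 minus that in miR-28a was 0.51 on the log2 scale (two-sided exact permutation p = 0.2, where 3 against 3 cannot go below 0.1). For miR-151 minus miR-708 it was 0.72 (exact p = 0.6) and for miR-28a minus miR-708 it was 0.21 (exact p = 0.9). Adjusted over these 3 pairs the exact p-values were 0.6, 0.9 and 0.9. Since this test could not have passed a threshold of 0.05, the values describe the 3 differences and do not show whether the hairpins changed alike.

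Taking both strands of a hairpin together, the miR-28a counts were lower in the tumors and the other two hairpins were not called. The miR-28a total was 100.3, 257 and 162 CPM in tumors 1, 2 and 3, against 382, 436 and 362 CPM in oviducts 1, 2 and 3. It fell 2.27-fold (log2 -1.18 with an SE of 0.39, edgeR adjusted p = 0.0427), where 20.5% of 161 tested hairpin totals fell and 16.8% rose. That background moves with the scaling, since 33 totals fell under TMM, 15 when only library totals were used and 73 when TMM was based on 3p names. It was 50 without tumor 1. The call was lost with library totals alone (log2 -0.70, edgeR adjusted p = 0.404), without oviduct 1 (log2 -1.52, edgeR adjusted p = 0.0603) and without oviduct 2 (log2 -1.20, edgeR adjusted p = 0.109). The miR-151 total averaged 4188 ± 386 CPM in the tumors and 4130 ± 507 CPM in the oviducts (SD, n = 3 each), with a log2 fold change of 0.02 (SE 0.26, edgeR adjusted p = 0.976). The miR-708 total averaged 203 ± 76.0 CPM in the tumors and 257 ± 58.7 CPM in the oviducts (SD, n = 3 each), with a log2 fold change of -0.33 (SE 0.41, edgeR adjusted p = 0.509). For miR-151, whose counts are mostly 3p, a lower 5p strand thus went with a total that stayed within its error.

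Summed over the 3 hairpins, the 5p strands had 266, 428 and 652 CPM in tumors 1, 2 and 3, against 1295, 1445 and 803 CPM in oviducts 1, 2 and 3. The 3p strands had 3826, 4169 and 4352 CPM in the tumors, against 4087, 3054 and 3657 CPM in the oviducts. Within the 5p sum, miR-151-5p made up 75.6% ± 6.57 in the tumors and 65.6% ± 9.57 in the oviducts, and miR-28a-5p 17.3% ± 7.52 and 25.4% ± 4.16 in the same order (SD, n = 3 each). These shares overlapped between the groups for each of the 3 strands. All together the 5p strands took 0.0576% ± 0.0386 of the mouse counts in the tumors and 0.106% ± 0.0345 in the oviducts. On this unscaled measure the groups overlapped, with tumor 3 (0.0968%) above oviduct 3 (0.0687%).

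The members' direction also has to be read against the scaling, which moves all names at once. With library totals alone the median over all tested names was 0.65 on the log2 scale instead of 0.20, with 71 higher and 27 lower against 61 and 58 under TMM, and 1 member, miR-708-5p, was called. With TMM factors taken from 3p names alone the median was -0.73, with 42 higher and 92 lower, and the same 3 5p members were called, at log2 -2.83 for miR-28a-5p, -2.17 for miR-151-5p and -2.79 for miR-708-5p. The 3p strands changed sign between these scalings, miR-151-3p standing at 0.64 and -0.68 and miR-28a-3p at 0.43 and -0.88, and were not called in either.

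**Figure D4:**
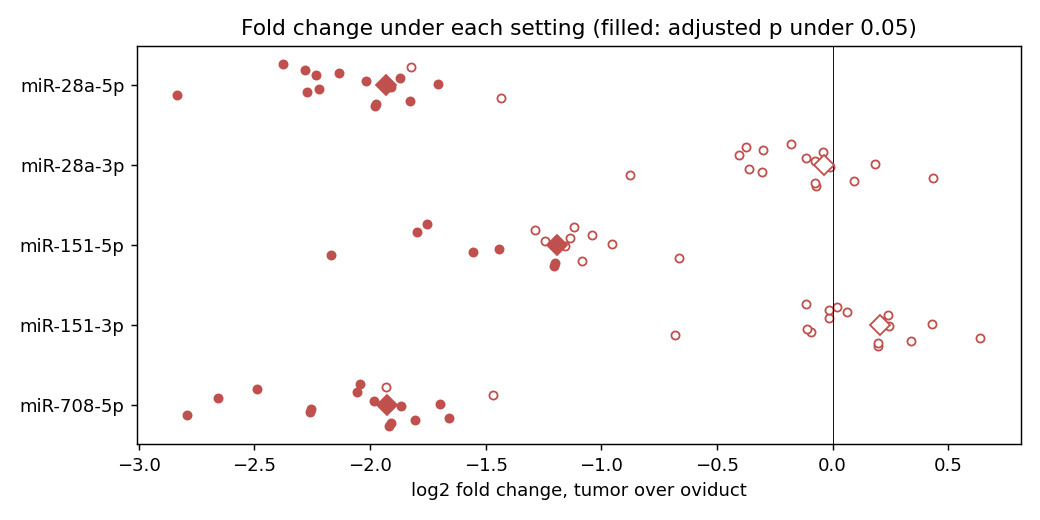
Log2 fold change (tumor over oviduct) of each member with TMM scaling (diamond) and under 16 alternative settings (circles), filled where the adjusted p was under 0.05. The 5p members lie below 0 throughout, with filled circles for 14, 7 and 14 of the 16 alternatives in miR-28a-5p, miR-151-5p and miR-708-5p, while the 3p members straddle 0 with none filled.

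For each member the microRNAs most like it were sought, by the root mean square difference of log2 CPM centred on each name's mean over the 6 libraries. Nearest to miR-28a-5p were let-7d-5p (difference 0.22) and miR-222-3p (0.30), where the median over all tested names was 1.36. Nearest to miR-151-5p were miR-30e-5p (0.29) and miR-24-2-5p (0.39), beside a median of 1.12. Nearest to miR-708-5p were miR-152-5p (0.47) and miR-205-5p (0.57), beside a median of 1.52. The flat profile of miR-151-3p was closest to miR-320-3p (0.11) and miR-140-3p (0.14), and that of miR-28a-3p to miR-574-5p and miR-1839-5p (0.32 each). Of these 10 neighbours, let-7d-5p, miR-222-3p, miR-30e-5p and miR-152-5p were called, all lower in the tumors, with log2 values of -1.67, -2.28, -1.16 and -1.61. The profiles were matched over the same 6 libraries, so the direction of these calls follows from the choice and is no separate result.

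Intronic hairpins with a long-known host gene, a list that holds the 3 hairpins described here, had 11 tested 5p strands, of which 5 fell, 1 rose and 5 were not called (median log2 -0.93), and 12 tested 3p strands, of which 0 fell, 4 rose and 8 were not called (median log2 0.49). Over all tested names, 48.4% of the 5p names fell and 41.8% of the 3p names rose, close to the list's own 5 of 11 and 4 of 12, and 3 of its 5 falls are the members themselves. The falling 5p strands were those of miR-28a, miR-151 and miR-708 with miR-204-5p (log2 -2.32) and miR-218-5p (log2 -4.29). The rising 5p strand was miR-126a-5p (log2 1.04). The rising 3p strands were miR-335-3p (log2 5.54), miR-106b-3p (log2 3.21), miR-25-3p (log2 1.74) and miR-126a-3p (log2 1.48). The counts of the host messenger RNAs are not part of this assay.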

How the data were processed

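Total RNA from a miRNeasy kit was sequenced as Illumina TruSeq small RNA libraries, per the labels' protocols. Adapter trimming used cutadapt, per the submitters' processing notes, and counting started from BAM files, per the file headers. The aligner, counting program and microRNA reference, and the treatment of reads that match several names are not stated in these sources. The deposited values are raw counts per microRNA name, with no normalization. Rows of other species (67 names, 10 counts in all) were left out.

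Groups were taken from the labels. Nothing in them says whether samples are different animals, and p-values therefore reflect only the spread between these samples, possibly technical. No library repeated another of its group (lowest chi-square of 29.3 per degree of freedom). The depth per library is given above. Intervals and the floor of 3 counts cover counting error only, since PCR copies cannot be told from separate molecules here.

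Single names and hairpin totals (5p plus 3p) were tested with edgeR 4.0.16 in R 4.3.3 (filterByExpr with a minimum count of 10, TMM factors, robust quasi-likelihood test). SEs are the log2 fold change over the square root of F. Strand ratios, as log2 with 0.5 added to each count, were tested with limma 3.58.1 over hairpins whose mean total reached 20 counts. Numbered copies of a hairpin were pooled. The edgeR and limma tests were two-sided and fitted over all features, with Benjamini-Hochberg adjustment and a threshold of 0.05. The exact permutation tests between hairpins were also two-sided and were adjusted over the compared pairs only. CPM are TMM-scaled. The profile comparison added 0.5 CPM before taking logs. Figures were drawn with Python 3.11.15 and matplotlib 3.10.9. The tests were tested on simulated data.

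Alternatives were DESeq2 1.42.0, 4 other scalings, 2 other low-count filters, identical rows kept once, names without an arm left out, other pseudocounts and minimum totals, an edgeR interaction, the replicate number as a block, and each library left out. Named microRNAs were the members, their relatives by name or seed, the 2 nearest profiles to each member, the hairpins next to miR-28a and miR-151 by ratio change, and the called members of the host gene list, named after their values were seen. The members and lists were chosen with earlier results of these data known.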

Additional observations from a re-analysis of the deposited data

How the results depend on the processing

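The number of the 5 members called, 3 with TMM scaling, was 1 with library totals alone and ranged from 0 (without oviduct 2) to 3 when each library was left out, with 1 also without tumor 2. The 3 5p members kept a negative sign in all 16 alternatives, as did the 3 hairpin ratios in all that were run. Signs of uncalled values changed. The log2 value of miR-28a-3p was 0.092 under upper-quartile scaling, 0.43 under library totals and 0.18 without armless names. That of miR-151-3p was -0.68 with TMM factors from 3p names, -0.093 with no low-count filter, -0.11 with the filter at 10 CPM, and -0.12 to 0.24 with each library left out. The miR-151 total was -0.88 with TMM factors from 3p names, where it was called (edgeR adjusted p = 0.0282), and -0.36 to 0.068 with each library left out. The miR-708 total was 0.11 with library totals alone and -1.24, and called, with TMM factors from 3p names (edgeR adjusted p = 0.0195). Counts over all features, 119 names, 73 ratios and 60 totals, stayed within 1.5 times of these values in all alternatives run, but the directions did not. Lower names, 58 with TMM, were 27 with library totals alone and 92 with TMM factors from 3p names, higher names were 98 with no low-count filter instead of 61, and lower totals were 15, 73 and, without tumor 1, 50 instead of 33. Leaving out each library gave 105 to 142 names, 53 to 69 ratios and 49 to 77 totals. The difference between the changes of miR-151 and miR-28a was 0.34 to 0.73. The cause of these changes was not tested. At a minimum of 100 counts miR-28a and miR-708 were not tested, which left no value.

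The groups share replicate numbers, but same-numbered libraries did not deviate together (r = -0.07, 0.02 and -0.12 across 227 microRNAs for numbers 1, 2 and 3), so the number was not taken as a pairing. With the number as a replicate block edgeR called 108 names and 2 members, miR-151-5p being lost (edgeR adjusted p = 0.0923), and the ratio of miR-708 was lost (limma adjusted p = 0.0710). Depth limits the tumor values of miR-708-5p (2 to 8 counts) and miR-28a-5p (7 to 26 counts) most.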
